A study of Homo sapiens with 8 samples.

Results

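The comparison described here set MOV10 overexpression directly against MOV10 knockdown, the 2 ends of MOV10 dose in one RNA sequencing study of HEK293F cells. Its members are the 5 libraries labelled as one or the other state, 3 of overexpression and 2 of knockdown, out of 8 libraries in all. Every gene symbol that passed a low-count filter in those 5 libraries was tested, which left 15235 of 23368 symbols. The other 3 libraries, from cells given an irrelevant siRNA, took no part in the test and are quoted only as a level beside it.

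HEK293F is an established cell line that comes from human embryonic kidney, and all cells were kept in DMEM containing serum. For knockdown the cells received MOV10 siRNA 3 times, with 24 h between treatments, and the control cells received irrelevant siRNA on the same schedule. For overexpression they were transfected once with a plasmid coding for myc-tagged MOV10. The labels do not say whether the overexpressing cells also received an siRNA, and no library from cells given an empty plasmid was analysed here. MOV10 dose therefore changes together with the nucleic acid delivered and the number of transfections, and these cannot be told apart. The knockdown libraries are the ones numbered 2 and 3, and no label says that replicates came from separate cultures, so p-values speak only to the scatter among these 5 libraries, which may be technical scatter. Total RNA was extracted with Trizol and made into stranded TruSeq libraries.

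MOV10 is an RNA helicase of superfamily 1, related to UPF1. It binds mRNAs, mostly in their 3' untranslated regions (3' UTRs), and is found with Argonaute proteins, which carry microRNAs to their targets, and with FMRP, the RNA-binding protein whose loss causes fragile X syndrome. It is also known as an inhibitor of retroelements. The study's title places the question in microRNA-mediated regulation, where MOV10 may either help or hinder silencing of a bound message.

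Library totals were between 12.7 M and 23.4 M counted reads with overexpression and were 32.8 M and 19.4 M with knockdown. The 10 symbols with the most reads took 2.37 to 2.52% of each of the 8 libraries. Levels are given in CPM, a gene's counts brought to one common library total, scaled by edgeR's TMM factors, which lay between 1.02 and 1.03 for overexpression and between 0.961 and 0.968 for knockdown. In a bulk RNA measurement, fewer cells of one kind and less RNA per cell cannot be told apart.

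MOV10 itself stood at 2979.6, 2919 and 2453 CPM in the overexpression libraries and at 50.6 and 55.7 CPM in the knockdown libraries. The control libraries, at 77.5, 77.0 and 91.7 CPM, lay above both knockdown libraries and far below all 3 overexpression libraries. The fitted log2 fold change of overexpression over knockdown was 5.71 ± 0.10 (SE; edgeR adjusted p = 3.57e-20), so the labels and the MOV10 reads go together. Reads of the plasmid's MOV10 sequence are part of the overexpression value. On this scale knockdown lies much nearer the control than overexpression does.

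Of the tested genes, 53.1% (8089) differed between overexpression and knockdown at an edgeR quasi-likelihood adjusted p under 0.05. This was 4182 genes, 27.4% of those tested, that were higher with overexpression, and 3907, 25.6%, that were lower. Rises and falls named below are of overexpression against knockdown, whatever the control level. Most differences were modest: the called genes had a median size of 0.42 on the log2 scale. Differences of at least 2-fold were found for 822 genes higher with overexpression and 169 lower, and of at least 4-fold for 73 and 40. The 3 overexpression and 2 knockdown libraries did not overlap for 69.3% of all tested genes, and for 4107 of the higher and 3885 of the lower called genes. With scaling to library totals alone the median of all genes moved from 0.02 to 0.10 and the calls became 5336 higher and 2674 lower, so the share of higher calls went from 51.7% to 66.6%. Without knockdown replicate 2 the calls fell to 2515 and 2189, in a fit that takes the remaining knockdown library to vary as the overexpression libraries do.

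**Figure D1:**
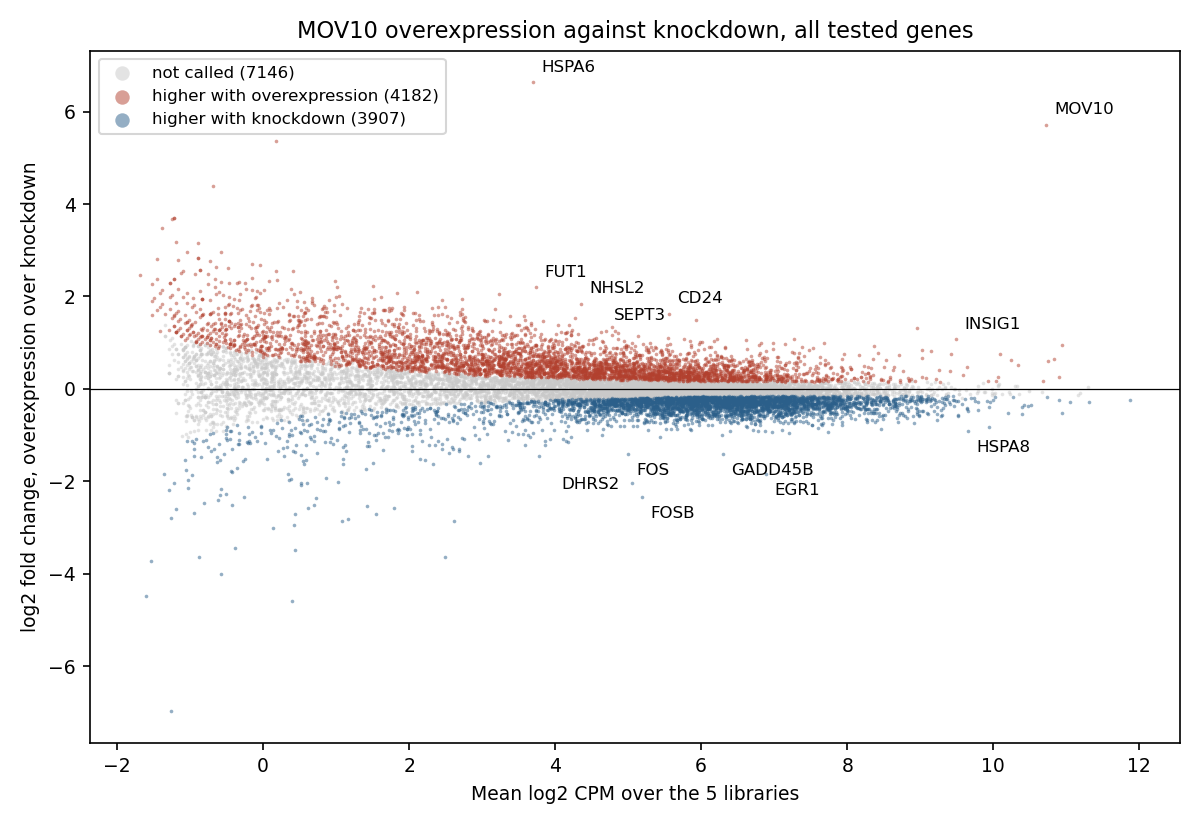
Each point is 1 of the 15235 tested genes, with its mean log2 CPM over the 5 libraries on the horizontal axis and the log2 fold change of overexpression over knockdown on the vertical axis. Red points are the 4182 genes called higher with overexpression and blue points the 3907 called higher with knockdown; HSPA6 and MOV10 lie far above all other genes with as many reads.

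Direction depended on how many reads a gene had. Among the 2949 genes with a mean log2 CPM of 0 to 3, 41.8% were higher with overexpression and 9.66% lower. Among the 4623 genes over 6, the order was the other way round, with 13.6% higher and 44.5% lower and a median log2 fold change of -0.13. The genes between, from 3 to 6, had 30.4% higher and 22.7% lower, and the 1077 genes under 0 had 29.2% higher and 6.87% lower. The tilt was present under library totals too, where the genes over 6 had 21.5% higher and 30.7% lower. For gene groups of many reads, the share lower is given below beside that of the genes over 6. What the tilt reflects was not tested.

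**Figure D2:**
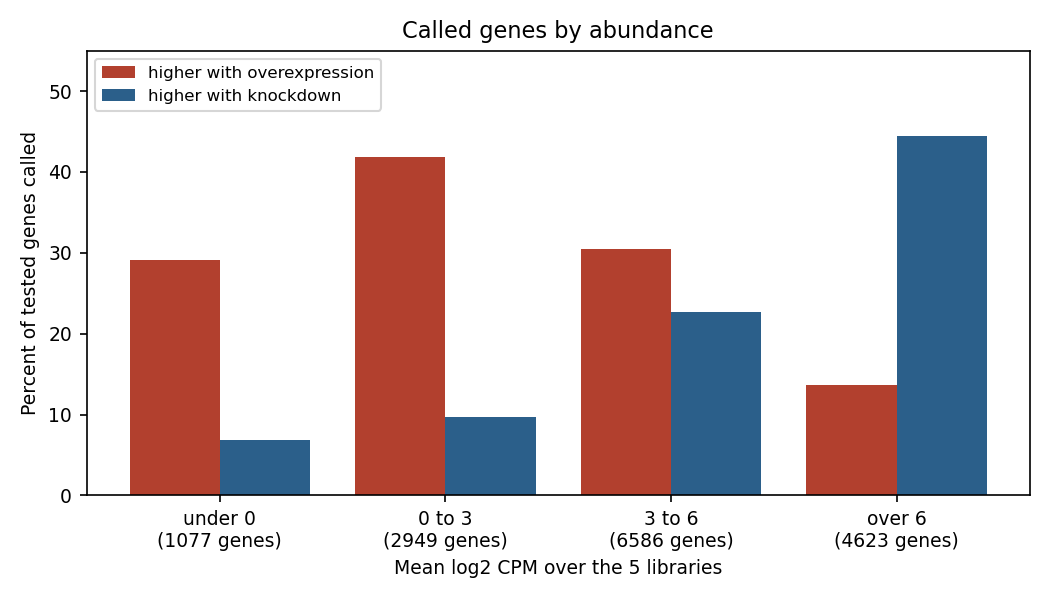
Bars give the percentage of tested genes called higher with overexpression (red) or with knockdown (blue) in 4 classes of mean log2 CPM over the 5 libraries. Higher calls with overexpression outnumber the others below 6, and above 6 the blue bar reaches 44.5% against 13.6%.

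The largest rise was that of HSPA6, a member of the HSP70 chaperone family known for its near absence without stress. It was at 24.7, 22.3 and 19.2 CPM with overexpression and 0.222 and 0.213 CPM with knockdown, a log2 fold change of 6.64 ± 0.23 (SE; edgeR adjusted p = 1.93e-14). In reads, this was 591, 498 and 251 with overexpression against 7 and 4 with knockdown, and 8, 3 and 5 in control. The control lay with the knockdown libraries, and every overexpression library was far above both. HSPA6 has a near-identical relative, HSPA7, and how the counting divided reads between them is not given in the sources used here.

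Among genes whose mean log2 CPM reached 3 or more, the next rises included genes of the cell surface and of secreted factors. FUT1, the fucosyltransferase that makes the H antigen, was at 19.6, 19.7 and 20.8 CPM with overexpression and 3.77 and 5.12 with knockdown, a log2 fold change of 2.21 ± 0.13 (edgeR adjusted p = 1.51e-10). Its control libraries, at 11.7, 9.85 and 10.7 CPM, lay between the groups and overlapped neither. INHBE, which codes for an activin beta subunit, was at 14.1, 13.8 and 13.7 CPM against 2.54 and 4.54, a log2 fold change of 2.05 ± 0.16 (edgeR adjusted p = 1.17e-08). Here control, at 3.84, 3.44 and 4.76 CPM, lay near knockdown, its highest library just above the knockdown range. CD24, a small membrane-anchored glycoprotein, was at 62.7, 62.2 and 71.0 CPM against 18.1 and 24.8, 1.62 ± 0.10 on the log2 scale (edgeR adjusted p = 1.04e-09), with control at 35.8, 35.7 and 38.8, between the groups. CD24 has near-identical copies elsewhere in the genome, so its reads are uncertain in origin.

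The circadian repressor NR1D1 was at 83.6, 89.2 and 75.3 CPM with overexpression and 33.4 and 25.2 with knockdown, a log2 fold change of 1.48 ± 0.10 (edgeR adjusted p = 1.23e-09). Control was at 28.3, 26.4 and 27.6, inside the range of the knockdown libraries. The gelatinase MMP2 was at 16.3, 17.6 and 15.5 CPM against 5.46 and 6.56, 1.48 ± 0.12 (edgeR adjusted p = 1.42e-08), with control at 9.39, 8.66 and 9.46, between the groups without overlap. The secreted guidance factor SLIT3 rose by 1.497, the ubiquitin ligase NEURL1B by 1.59 and the meiotic chromosome protein SYCP2 by 1.49 on the log2 scale. NHSL2 (1.84), the noncoding RNA LINC00173 (1.72), LPPR3 (1.57) and C10orf10 (1.54) complete the 14 genes of this size class, with MOV10 and HSPA6. That every overexpression library was above every knockdown library was a condition for choosing these genes.

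At the same read level, the largest falls included genes of the immediate early response, which growth factors and stress switch on within minutes. FOSB, an AP-1 subunit, was at 12.4, 14.5 and 13.8 CPM with overexpression and 67.1 and 69.6 CPM with knockdown, a log2 fold change of -2.34 ± 0.08 (SE; edgeR adjusted p = 5.01e-14). The zinc finger factor EGR1 was at 60.2, 56.9 and 54.9 CPM against 217 and 196, -1.85 ± 0.07 on the log2 scale (edgeR adjusted p = 7.52e-14). FOS was at 19.1, 18.1 and 19.1 CPM against 50.4 and 49.4, -1.41 ± 0.08 (edgeR adjusted p = 1.15e-10). For each of these 3 genes the control libraries lay between the groups and overlapped neither, at 28.6, 22.8 and 26.3 CPM for FOSB, 122, 100.3 and 102 for EGR1 and 29.6, 26.6 and 23.2 for FOS. GADD45B, a stress-induced growth arrest gene, was at 45.1, 47.0 and 48.4 CPM against 134 and 113, -1.40 ± 0.08 (edgeR adjusted p = 6.16e-11). ARC, whose protein acts at synapses, fell by 1.205 on the log2 scale.

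Other large falls were of mixed function. The short-chain dehydrogenase DHRS2 was at 14.97, 14.4 and 13.7 CPM with overexpression and 66.7 and 50.8 with knockdown, a log2 fold change of -2.03 ± 0.10 (edgeR adjusted p = 1.77e-11). Its control libraries, at 19.5, 18.5 and 16.8 CPM, lay close to the overexpression libraries. The same held for HIST1H4H, a gene for histone H4, at 8.95, 7.03 and 7.28 CPM against 24.0 and 17.99 with control at 7.29, 7.35 and 5.84. PRR22, by contrast, was at 6.10, 4.88 and 2.45 CPM with overexpression and 13.04 and 13.2 with knockdown (-1.46 ± 0.17, edgeR adjusted p = 1.04e-06), with control at 12.7, 11.3 and 11.9, nearer the knockdown libraries. The remaining falls of this size class were DNAH1 (-1.22), ALG1 (-1.15), NBPF10 (-1.13), LOC100289019 (-1.13), SLC4A5 (-1.10) and PRKAR1B (-1.09). The falls, too, were chosen among genes whose groups did not overlap. NBPF10 belongs to a family of near-identical copies.

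**Figure D3:**
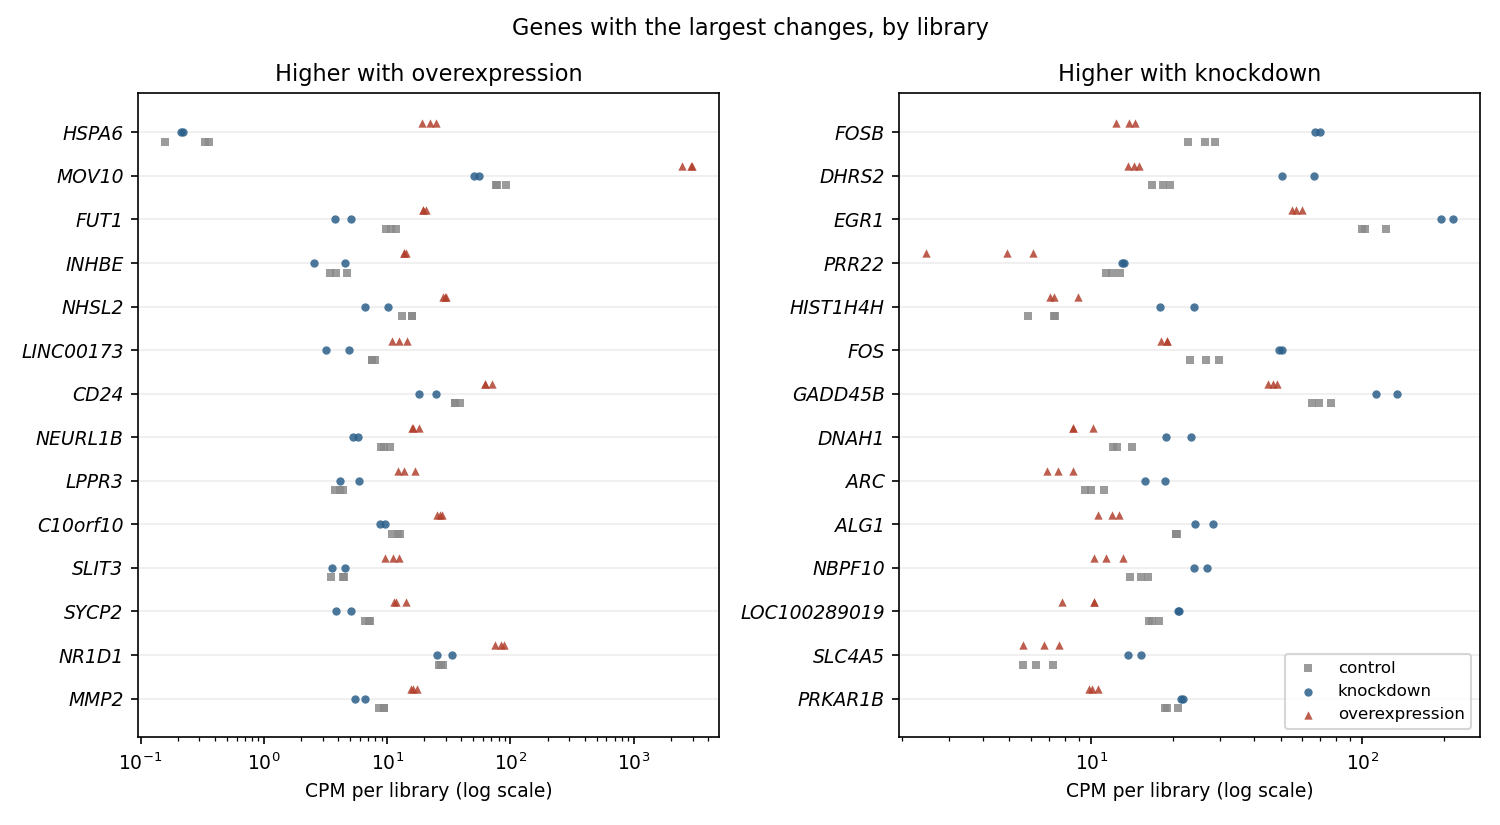
CPM on a log axis for the 14 genes with the largest rise (left) and the 14 with the largest fall (right) among genes whose mean log2 CPM reached 3 or more; each symbol is 1 library, with triangles for overexpression, circles for knockdown and squares for control. Triangles and circles never overlap, which was a condition for choosing these genes. The squares lie between them for FUT1, FOSB and EGR1, beside the circles for HSPA6 and NR1D1, and beside the triangles for DHRS2.

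Among the genes with most reads and a change of at least 1.5-fold, the falls included RNA-binding proteins and chaperones. YBX1, an mRNA-packaging protein, was at 749, 793 and 724 CPM with overexpression and 1428 and 1228 with knockdown (-0.81 ± 0.07, edgeR adjusted p = 1.72e-08). HSPA8, the constitutive HSP70 of the cytosol, was at 601, 590.1 and 599 against 1169.8 and 1070.4 CPM (-0.91 ± 0.06, edgeR adjusted p = 1.05e-09). Both had control levels between the groups. The splicing-related protein SFPQ (-0.59), the calcium-binding chaperone CALR (-0.67) and beta-catenin CTNNB1 (-0.59) also fell. For CTNNB1 every control library, at 441, 430 and 425 CPM, lay below both groups. Rises of this kind were those of the inducible chaperones HSPA1A (0.65) and HSPA1B (0.61), the insulin receptor substrate IRS4 (0.63) and the chromatin protein NUCKS1 (0.76). HSPA1A and HSPA1B are near-identical copies, and reads of one can be counted for the other. NUCKS1 was at 1309, 1230.2 and 1376 CPM with overexpression, 766 and 774 with knockdown and 1341, 1345 and 1329 in control, so the control mean was not between the groups but above both, with its libraries inside the range of overexpression.

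The cytosolic chaperones moved in both directions. Of 35 tested genes for cytosolic chaperones, 8 were higher and 16 lower with overexpression, with a median log2 fold change of -0.14 against 0.02 for all genes. The 45.7% that were lower lay near the 44.5% of genes over 6. Besides HSPA6, HSPA1A and HSPA1B, the HSP40 member DNAJB1 (0.90 ± 0.07), the small heat shock protein HSPB8 (0.92 ± 0.08) and alpha-B-crystallin, CRYAB (1.98 ± 0.39), rose. HSPA8 was among the falls. Asking for a change beyond 1.2-fold turned the balance of this list to 8 higher and 4 lower. Leaving out knockdown replicate 2 gave 8 higher and 10 lower, and library totals 9 higher and 13 lower.

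Genes driven by ATF4, the transcription factor of the amino acid and integrated stress response, leaned higher with overexpression. Among 38 tested, 18 were higher (47.4%, against 27.4% of all genes) and 7 lower, with a median of 0.15. Asparagine synthetase, ASNS, was at 242, 252 and 276 CPM with overexpression and 117 and 142 with knockdown (0.99 ± 0.08, edgeR adjusted p = 1.54e-08). Control, at 177, 171 and 180.2 CPM, lay between. The glutathione-degrading enzyme CHAC1 (1.38 ± 0.11), the mitochondrial folate enzyme ALDH1L2 (1.66 ± 0.14), the cystine transporter SLC7A11 (1.03 ± 0.10), the pseudokinase TRIB3 (0.97 ± 0.09), the cysteine-making enzyme CTH (0.98 ± 0.09) and the stress protein NUPR1 (2.35 ± 0.33) rose. The ATF4 message itself was at -0.16 ± 0.06 (edgeR adjusted p = 0.0423), a call that 9 settings ended, library totals among them (edgeR adjusted p = 0.359).

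The chaperones and stress genes of the endoplasmic reticulum did not lean one way, with 8 higher and 7 lower among 29. These shares, 27.6% and 24.1%, were near the 27.4% and 25.6% of all genes. CALR, the disulfide isomerase P4HB (-0.51 ± 0.06) and the chaperone HYOU1 (-0.52 ± 0.06) fell, and the membrane-bound transcription factor CREB3L2 rose (0.68 ± 0.07).

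The immediate early genes moved in both directions. Of 42 tested, 13 were higher (31.0%, near the 27.4% of all genes) and 16 lower (38.1%, against 25.6%), with a median of -0.12. Under library totals it was 16 higher and 14 lower. The list's median against the control mean was 0.27 with overexpression and 0.37 with knockdown. FOSB, EGR1, FOS and ARC were among the falls. Higher with overexpression were the feedback inhibitors of growth factor signalling DUSP4 (1.16 ± 0.11) and SPRY4 (0.86 ± 0.12) and the transcription factor KLF2 (0.70 ± 0.20), whose call was lost without knockdown replicate 2 (edgeR adjusted p = 0.141). Target genes of p53 had 7 higher and 16 lower of 34, and 10 higher and 13 lower under library totals. The 47.1% of them that were lower lay near the 44.5% of genes over 6. Their median against the control mean was 0.37 with overexpression and 0.46 with knockdown, so both medians lay above control. The apoptosis effector BAX (-0.82 ± 0.08), the oxidoreductase TP53I3 (-0.99 ± 0.15), the repair factor XPC (-0.39 ± 0.07) and the cell cycle inhibitor CDKN1A (-0.34 ± 0.07) fell, while the apoptosis gene PMAIP1 rose (0.62 ± 0.07). CDKN1A lost its call without knockdown replicate 2 (edgeR adjusted p = 0.0517).

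Interferon-stimulated genes, many of which act against viruses, were among the groups that leaned most to overexpression. Of 43 tested, 19 were higher (44.2%, against 27.4% of all genes) and 3 lower, and the median log2 fold change was 0.31. The median mean log2 CPM of the list was 3.07, so its members belong mostly to the classes in which higher calls prevail. BST2, which tethers virus particles to the membrane, was at 1.76, 1.70 and 1.46 CPM with overexpression and 0.285 and 0.267 with knockdown (2.56 ± 0.33, edgeR adjusted p = 2.50e-06), with control at 0.492, 0.678 and 0.671. The groups did not overlap, on a scale of few reads. The membrane protein IFITM1 was at 6.81, 9.27 and 6.59 CPM against 2.32 and 2.72 (1.62 ± 0.18, edgeR adjusted p = 4.31e-07). IFIT2 (1.69 ± 0.23), which binds viral RNA, and the helicase DDX60 (0.95 ± 0.13) rose as well. With knockdown replicate 2 left out, the list gave 9 higher and 2 lower. Against the control mean, the list's median was 0.12 with overexpression and -0.20 with knockdown on the log2 scale, and these ratios share the control libraries.

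The restriction factors of retroelements, the field in which MOV10 is best known as an inhibitor, were divided. Of 23 tested, 6 were higher (26.1%, against 27.4% of all genes) and 5 lower (21.7%, against 25.6%), and the 6 include the transfected MOV10 itself. The cytidine deaminase APOBEC3G rose (1.48 ± 0.19), as did BST2, which both lists hold. SAMHD1, which depletes nucleotides, was at 42.8, 38.9 and 43.5 CPM with overexpression and 74.2 and 69.0 with knockdown (-0.78 ± 0.07, edgeR adjusted p = 8.54e-08), lower with overexpression in every library.

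Genes of the neuronal cytoskeleton, projections and synapses leaned higher with overexpression. Of 53 tested, 28 were higher (52.8%, against 27.4% of all genes) and 10 lower, with a median of 0.23. The septin gene SEPT3 was at 34.1, 34.3 and 34.4 CPM with overexpression and 13.3 and 15.5 with knockdown (1.26 ± 0.09, edgeR adjusted p = 5.36e-09). Its control libraries, at 31.2, 32.9 and 38.3 CPM, lay around the overexpression libraries and above those of knockdown. The postsynaptic scaffold SHANK1 rose too (1.44 ± 0.15). The list was not uniform: the stathmin STMN3 (-0.89 ± 0.09) and the synaptic vesicle protein SYP (-0.92 ± 0.10) fell.

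Of 61 cadherins and protocadherins, 17 were higher (27.9%, near the 27.4% of all genes) and 10 lower (16.4%), with a median of 0.35. The list's median mean log2 CPM was 1.47, and genes of 0 to 3 had 41.8% higher, 9.66% lower and a median of 0.33. Epithelial cadherin, CDH1, was at 19.9, 16.5 and 16.03 CPM with overexpression and 6.60 and 8.06 with knockdown (1.29 ± 0.12, edgeR adjusted p = 1.08e-07). Neural cadherin, CDH2, went the other way, at 152, 136 and 158 against 203 and 211 CPM (-0.48 ± 0.07, edgeR adjusted p = 1.11e-05). CDH3 (1.19 ± 0.17) and CDH23 (1.24 ± 0.19) rose. With knockdown replicate 2 left out, the list gave 9 higher and 6 lower. Clustered protocadherins share parts of their sequence, and their single values are uncertain.

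Extracellular matrix and adhesion genes had 18 higher (34.6%, against 27.4% of all genes) and 9 lower of 52, with a median of 0.07. Without knockdown replicate 2 the list's median was -0.01. The integrin chains ITGB8 (1.63 ± 0.18) and ITGA6 (0.56 ± 0.09) and the collagen COL6A2 (0.81 ± 0.10) rose, and the basement membrane protein NID1 fell (-0.88 ± 0.06). Every control library lay below both groups for COL6A2 and NID1. For NID1 the means were 227 CPM in control, 265 with overexpression and 487 with knockdown. Over the whole list, the median against the control mean was 0.38 with overexpression and 0.32 with knockdown. Genes of the actin cytoskeleton had 3 higher and 11 lower of 26, and 5 higher and 9 lower under library totals. Their 42.3% lower lay near the 44.5% of genes over 6. Smooth muscle actin, ACTA2 (-1.07 ± 0.10), the nonmuscle myosin MYH9 (-0.56 ± 0.06) and its light chain MYL6 (-0.61 ± 0.08) fell. ACTA2 was at 11.8, 12.1 and 10.6 CPM with overexpression and 24.8 and 24.0 with knockdown. Its control libraries, at 7.24, 8.45 and 8.12 CPM, lay below both groups. Axon guidance genes had 17 higher (37.8%, against 27.4% of all genes) and 12 lower of 45. SLIT3, SEMA5B (1.64 ± 0.18) and NTN4 (0.71 ± 0.12) rose, and EFNB2 fell (-0.42 ± 0.06). Without knockdown replicate 2, axon guidance genes were even, at 7 higher and 7 lower.

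The partners of MOV10 in silencing changed little and in both directions. Of 15 tested genes of the Argonaute and TNRC6 silencing complex, 3 were higher and 4 lower, and under library totals 5 higher and 3 lower. The first counts are 20% and 26.7%, against 27.4% and 25.6% of all genes. The Argonaute genes, listed under their older names, did not move as one. EIF2C1 (AGO1) was at 99.7, 94.8 and 92.2 CPM with overexpression and 123 and 115 with knockdown (-0.32 ± 0.07, edgeR adjusted p = 4.85e-04). EIF2C3 (AGO3) was lower as well (-0.22 ± 0.08), but 9 settings ended that call, library totals among them (edgeR adjusted p = 0.179). EIF2C4 (AGO4) was higher (0.26 ± 0.07), a call lost without knockdown replicate 2 (edgeR adjusted p = 0.104), and EIF2C2 (AGO2) did not pass the test (0.11 ± 0.08, edgeR adjusted p = 0.265). The scaffold TNRC6A was at 136, 125 and 126 CPM against 181 and 168 (-0.44 ± 0.07, edgeR adjusted p = 1.99e-05), with control at 135, 137 and 136. Its relatives TNRC6B (0.15 ± 0.08) and TNRC6C (-0.07 ± 0.08) did not pass.

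Factors that make microRNAs had 1 higher and 10 lower of 20, but 5 higher and 6 lower under library totals. Their 50% lower stood beside the 44.5% of genes over 6. Exportin-5, XPO5, which carries precursor microRNAs out of the nucleus, was at 192, 188 and 181 CPM with overexpression and 269 and 266 with knockdown (-0.51 ± 0.06, edgeR adjusted p = 1.19e-06). The cap-binding partner SRRT (-0.62 ± 0.07), the Dicer partner TARBP2 (-0.67 ± 0.09) and the nuclear nuclease DROSHA (-0.19 ± 0.06) fell. The DROSHA call was lost in 7 settings, library totals among them (edgeR adjusted p = 0.173). DICER1 itself did not pass the test (-0.04 ± 0.07, edgeR adjusted p = 0.643), and its value was 0.05 under library totals. The list gave fewer calls without knockdown replicate 2, at 1 higher and 5 lower.

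FMR1, the gene of FMRP, was at 127, 128 and 135 CPM with overexpression and 144 and 135 with knockdown (-0.10 ± 0.07, edgeR adjusted p = 0.202), and the groups lay side by side. Its relative FXR1 did not pass the test either (0.06 ± 0.06), and FXR2 was lower (-0.37 ± 0.07). Among 25 tested FMRP relatives and partners in mRNA particles, 5 were higher and 10 lower (40%, below the 44.5% of genes over 6), and under library totals 7 higher and 8 lower. YBX1 and the mRNA-binding protein IGF2BP1 (-0.48 ± 0.06) fell, and PURA (0.59 ± 0.07) and NUFIP2 (0.48 ± 0.06) rose.

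Of the 35 gene lists, the one with the highest share of members lower with overexpression was that of nonsense-mediated decay and the exon junction complex, which find and destroy messages with early stop codons. Of 18 tested genes, 1 was higher and 12 (66.7%) lower, and the median was -0.41, below the -0.13 of genes over 6 in mean log2 CPM. UPF1, the central helicase of this pathway and a relative of MOV10, was at 208, 230.1 and 217 CPM with overexpression and 301 and 278 with knockdown (-0.41 ± 0.07, edgeR adjusted p = 3.53e-05), with control at 240.5, 240.1 and 237, between the groups. The exon junction subunits EIF4A3 (-0.62 ± 0.07) and RBM8A (-0.61 ± 0.07), the helicase DHX34 (-0.79 ± 0.07) and the SMG1 regulator SMG8 (-0.58 ± 0.07) fell. Against the control mean, the list's median was -0.18 with overexpression and 0.13 with knockdown. Library totals gave 2 higher and 11 lower.

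Deadenylation, decapping and decay factors had 5 higher and 22 lower of 43, with 51.2% lower beside the 44.5% of genes over 6. This was 6 higher and 14 lower under library totals, and 2 higher and 8 lower without knockdown replicate 2. The decapping factors PATL1 (-0.49 ± 0.07) and EDC4 (-0.48 ± 0.07) and the exosome nuclease EXOSC10 (-0.41 ± 0.06) fell. The deadenylase CNOT8 was at 114, 111 and 123 CPM with overexpression and 77.0 and 77.2 with knockdown (0.58 ± 0.07, edgeR adjusted p = 1.02e-06), against the larger count of its list. Its control libraries, at 116, 121 and 111 CPM, lay inside the range of overexpression. Of 8 tested superfamily 1 helicases, MOV10 was the 1 that rose. UPF1, DNA2 (-0.34 ± 0.07) and AQR (-0.30 ± 0.07) were among the 4 that fell, 50% beside the 44.5% of genes over 6. Without knockdown replicate 2, 2 of these were called lower, and AQR lost its call (edgeR adjusted p = 0.0532).

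**Figure D4:**
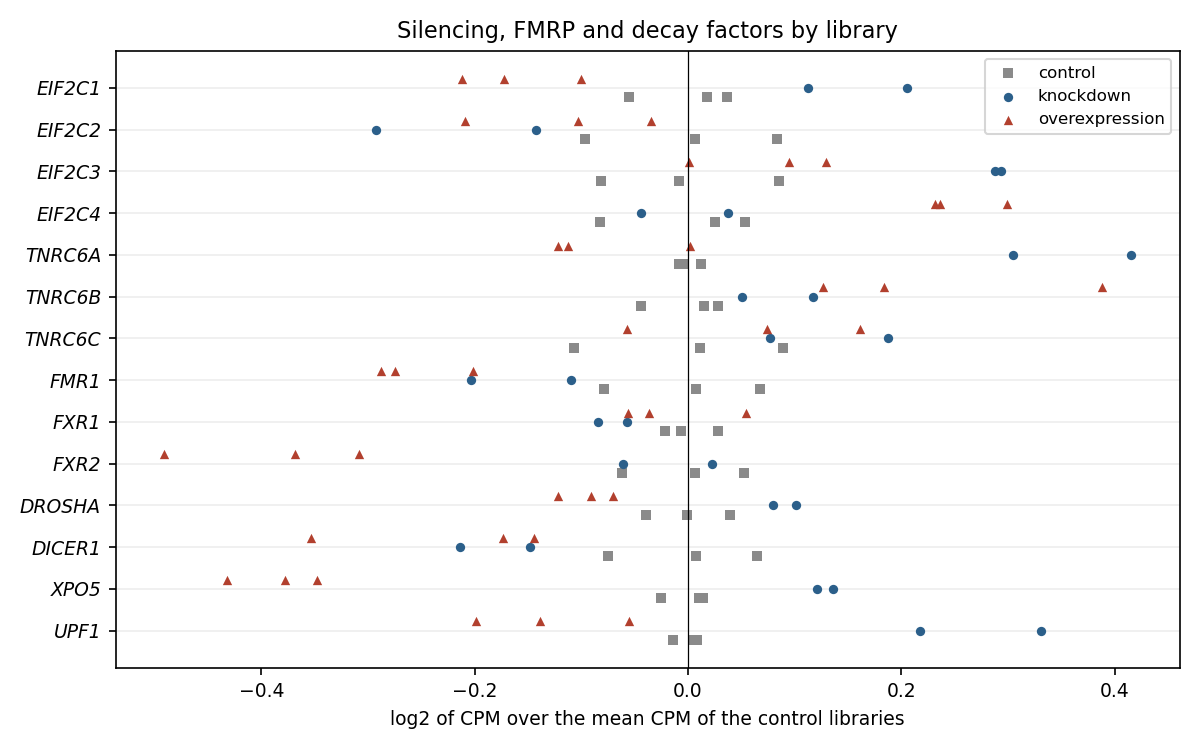
For 14 genes of microRNA silencing, FMRP and decay, the log2 ratio of each library's CPM to the mean of the 3 control libraries; triangles are overexpression, circles knockdown and squares control. TNRC6A, XPO5 and UPF1 have all circles to the right of all triangles, EIF2C4 the reverse, and FMR1 and DICER1 have both groups side by side.

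The machinery of protein and energy metabolism leaned lower with overexpression, as did the genes with most reads generally, of which 44.5% were lower. None of the 35 proteasome subunits was called higher and 18 were lower, among them PSMD2 (-0.52 ± 0.06). The list's median was -0.22 at a median mean log2 CPM of 7.01. Mitochondrial ribosomal proteins had 1 higher and 37 lower of 76, with MRPS7 at -0.67 ± 0.07, and without knockdown replicate 2 it was 0 higher and 22 lower. Nuclear genes of oxidative phosphorylation had 7 higher and 39 lower of 90 (43.3%), and 9 higher and 20 lower under library totals. Splicing factors of the hnRNP and SR kind had 7 higher and 28 lower of 64, and 10 higher and 20 lower under library totals, among the falls SF3A1 (-0.67 ± 0.06) and HNRNPM (-0.63 ± 0.06). Without knockdown replicate 2 the falls were 18 for oxidative phosphorylation and 17 for splicing.

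Cytosolic ribosomal proteins had 5 higher and 28 lower of 82, a smaller share than that of all genes over 6. This count was 10 higher and 11 lower under library totals, 3 higher and 10 lower without knockdown replicate 2 and 4 higher and 15 lower without knockdown replicate 3. Translation factors had 7 higher and 23 lower of 45, and 11 higher and 13 lower under library totals, 3 higher and 11 lower without knockdown replicate 2, 4 higher and 14 lower without knockdown replicate 3 and 4 higher and 13 lower without overexpression replicate 1. The initiation factor gene EIF2S1, which codes for the alpha subunit of eIF2, stood against its list. It was at 221, 210.3 and 248 CPM with overexpression and 119 and 126 with knockdown (0.89 ± 0.07, edgeR adjusted p = 2.14e-08), with no overlap. Its control libraries, at 242, 227 and 227 CPM, lay inside the range of overexpression. Several ribosomal protein genes have processed copies in the genome, and their single values are uncertain.

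Lysosomal enzymes and membrane proteins also leaned lower, with 4 higher and 24 lower of 43 and a median of -0.23. The share lower was 55.8%, against 25.6% of all genes and 44.5% of genes over 6. The protective protein CTSA was at 31.6, 31.3 and 26.0 CPM with overexpression and 62.6 and 61.1 with knockdown (-1.05 ± 0.08, edgeR adjusted p = 1.09e-08). Control, at 41.1, 36.9 and 39.0 CPM, lay between the groups. The protease CTSD fell by 0.70 on the log2 scale. For this list the median against the control mean was 0.00 with overexpression and 0.32 with knockdown.

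Sterol genes had 9 higher (31.0%, near the 27.4% of all genes) and 5 lower of 29, with a median of 0.02, that of all genes. INSIG1, which retains the sterol sensor in the endoplasmic reticulum, was at 832, 909.6 and 1003 CPM against 393 and 476 with knockdown (1.07 ± 0.08, edgeR adjusted p = 8.69e-09). The sterol exporters ABCA1 (1.54 ± 0.16) and ABCG1 (1.76 ± 0.16) and the synthesis enzyme HMGCS1 (0.76 ± 0.07) rose. Host genes of small nucleolar RNAs, with 7 higher (41.2%, against 27.4% of all genes) and 0 lower of 17, included GAS5 (0.43 ± 0.07). Without knockdown replicate 3, 2 of the host genes were called higher and none lower. Zinc finger genes named ZNF had 135 higher and 84 lower of 469 (28.8% and 17.9%), with a median of 0.08, so the share higher was near that of all genes, and 85 higher and 37 lower without knockdown replicate 2. Single members moved in both directions, with ZNF121 at 0.86 ± 0.09, ZNF467 at 1.19 ± 0.12 and ZNF503 at -0.74 ± 0.07.

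Growth and cell cycle genes were mixed. Mitosis genes had 9 higher and 16 lower of 48, with falls of the transcription factor FOXM1 (-0.71 ± 0.07) and the kinase PLK1 (-0.59 ± 0.07), and 2 higher and 9 lower without knockdown replicate 2. Under library totals mitosis genes were even, at 10 higher and 10 lower. DNA replication genes, of which 30.8% were lower against 33.3% of mitosis genes and 44.5% of genes over 6, had 7 higher and 16 lower of 52, but 11 higher and 8 lower under library totals and 3 higher and 7 lower without knockdown replicate 2. The single-strand binding protein RPA1 fell (-0.40 ± 0.06), and the sliding clamp PCNA (0.34 ± 0.06) and the transcription factor E2F1 (0.43 ± 0.07) rose, both with a control mean above both groups. Replication-dependent histone genes had 6 higher (14.3%) and 11 lower (26.2%) of 42, against 27.4% and 25.6% of all genes. Their median mean log2 CPM was 1.16, and genes of 0 to 3 had 41.8% higher and 9.66% lower. HIST1H2BG was at -1.93 ± 0.27, HIST1H2AE at -1.63 ± 0.23 and the linker histone HIST1H1C at 0.78 ± 0.08. The histone list's median against the control mean was 0.78 with overexpression and 0.92 with knockdown. The histone balance without knockdown replicate 2 was 6 higher and 4 lower. Histone genes share near-identical sequence, and their messages lack a poly(A) tail.

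Signalling lists held opposed members. In the let-7 list 23.3% were higher and 26.7% lower, and in the TGF-beta list 25% and 27.3%. All genes had 27.4% and 25.6%. Targets of the microRNA let-7 and oncofetal growth genes had 7 higher and 8 lower of 30, which turned to 10 higher and 3 lower under library totals, 4 higher and 3 lower without knockdown replicate 2 and 6 higher and 3 lower without overexpression replicate 1. The cyclins CCND2 (0.97 ± 0.07) and CCND1 (0.68 ± 0.07) and the transcription factor MYC (0.58 ± 0.07) rose, and IGF2BP1 fell. TGF-beta and BMP genes had 11 higher and 12 lower of 44, 19 higher and 7 lower under library totals and 5 higher and 6 lower without knockdown replicate 2. Besides INHBE, the latency protein LTBP1 (0.98 ± 0.09) and the receptor BMPR2 (0.74 ± 0.08) rose, and the repressor SKI fell (-0.67 ± 0.07). Wnt pathway genes had 16 higher (32%, near the 27.4% of all genes) and 9 lower of 50, with a median of 0.09. The receptors FZD4 (0.63 ± 0.08) and RYK (0.52 ± 0.07) rose. Without knockdown replicate 2 the median of the Wnt list was 0.10. Hypoxia and glycolysis genes had 5 higher and 13 lower of 36 (36.1%, below the 44.5% of genes over 6), and 8 higher and 12 lower under library totals. With TMM scaling, the glucose transporter SLC2A3 rose (0.99 ± 0.10) and HIF1A fell (-0.41 ± 0.06).

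**Figure D5:**
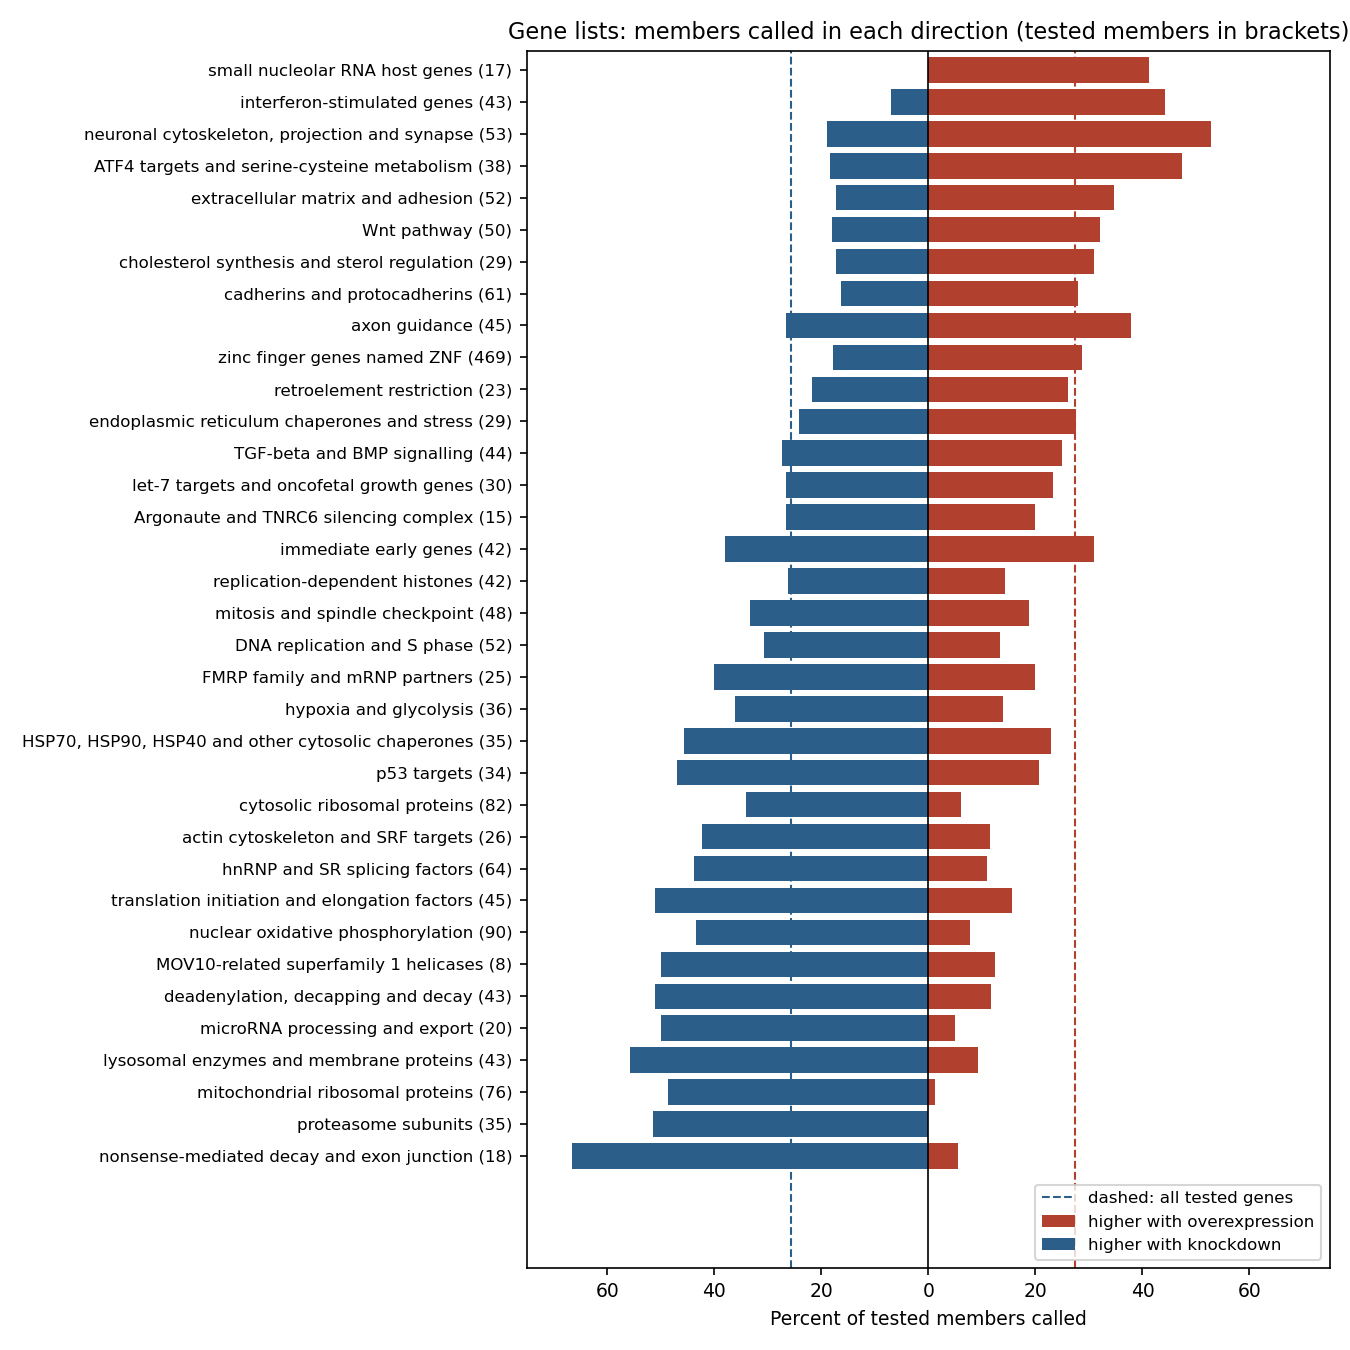
Percentage of tested members of 35 gene lists called higher with overexpression (red, to the right) or with knockdown (blue, to the left); dashed lines give the 27.4% and 25.6% of all tested genes. Neuronal, ATF4 and interferon-stimulated genes reach farthest to the right, and nonsense-mediated decay, lysosome and proteasome genes to the left.

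For most called genes, control lay between the groups by group means. This held for 2822 of the 4182 higher genes (67.5%) and 2648 of the 3907 lower genes (67.8%). For changes of at least 2-fold it held for 686 of 822 (83.5%) and 146 of 169 (86.4%). Genes chosen for a wide gap between the groups leave more room for the control mean between them. These shares are therefore no test of an order by MOV10 level, and no share over all tested genes is given beside them. With every single library kept apart, control was between for 1051 higher and 1259 lower genes. By group means, control was above both groups for 620 of the higher and 700 of the lower genes, and below both for 740 and 559. In these genes overexpression and knockdown differed while both group means lay on the same side of control.

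Because MOV10 binds 3' UTRs, the UTRs of the tested genes were read from GENCODE 29, a GRCh38 annotation, for 13666 of the tested genes, 12724 of them matched by name and 942 by another symbol. Genes higher with overexpression had a median 3' UTR of 1591 nt with 41.3% G and C, and lower genes 1276 nt with 46.0%, against 1390 nt and 42.6% for all. Of the 3417 genes with the longest 3' UTRs, 33.5% were higher and 22.5% lower. Of the 3417 genes with the 3' UTRs richest in G and C, 24.2% were higher and 33.5% lower. Genes higher and lower also differ in read level, with a median mean log2 CPM of 4.02 and 6.17, and the part of that in these values was not tested.

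A scan of 8-base words, on the strand of the message, ranked AGCAAACA first for its association with the log2 fold change. The next words that shared no run of 5 bases with an earlier one, on either strand, were GTCTGTTA (rank 4) and TTTATTTA (rank 6), and the words between were passed over. The words were chosen on this comparison, so the values that follow describe them and are no test. AGCAAACA was in the 3' UTR of 686 genes (5.02%), of which 46.4% were higher with overexpression and 14.7% lower, with a median of 0.18. GTCTGTTA was in 396 genes (2.90%), with 46.0% higher and 13.4% lower and a median of 0.17. TTTATTTA, a word of AU-rich elements, was in 2608 genes (19.1%), with 34.1% higher and 20.1% lower. All 13666 genes with a 3' UTR had 27.4% higher and 27.1% lower. For the first pair of words the medians against the control mean were -0.15 and -0.11 with knockdown and 0.03 and 0.02 with overexpression, and both ratios share the control libraries.

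The following windows of 30 bases, taken from GENCODE 29 transcripts, show each word in capitals inside the 3' UTR of genes described above. They include 2 genes, SAMHD1 and FOS, that fell with overexpression.
SEPT3, higher: aattgaaaacaAGCAAACAgacactcaaac
CNOT8, higher: tgaaactgaaaAGCAAACAattttactgaa
EIF2S1, higher: aaatgtattcaAGCAAACAtcaaataaatt
SAMHD1, lower: gtgtatttaagAGCAAACActagccaggcg
SLC2A3, higher: cgcttgcgtatGTCTGTTAccatgtcactg
BMPR2, higher: aagttatatttGTCTGTTAtgaccacagag
FUT1, higher: ttttttaattaTTTATTTAtttatttattt
CDH1, higher: gttcattaatgTTTATTTAgctctgaagca
FOS, lower: tgtgtttttaaTTTATTTAttaagatggat

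SAMHD1 holds AGCAAACA and FOS holds TTTATTTA, and both were lower with overexpression, so holding either word went with either direction. Among the higher genes with a 3' UTR, 8.49% held AGCAAACA, and among the lower genes 2.73% did. In an alternative chosen after seeing the data, calls counted without the genes that hold AGCAAACA or GTCTGTTA were 3707 higher and 3762 lower of 14203 tested.

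Sites for microRNAs were then counted, since the study's title concerns them. A site was the 8-base match to bases 2 to 8 of the microRNA followed by an A, on the strand of the message. Mature sequences are RefSeq's (GRCh38.p14), with the seed, bases 2 to 8, in capitals. The first 7 are families known to be common in many cultured human cells, and the last 2 are known chiefly from liver and from muscle.
let-7a-5p: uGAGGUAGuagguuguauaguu
miR-16-5p: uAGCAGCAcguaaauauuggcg
miR-17-5p: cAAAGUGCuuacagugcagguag
miR-19b-3p: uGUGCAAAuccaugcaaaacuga
miR-92a-3p: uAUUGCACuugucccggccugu
miR-21-5p: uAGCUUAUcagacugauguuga
miR-30a-5p: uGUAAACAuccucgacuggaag
miR-122-5p: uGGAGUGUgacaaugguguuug
miR-1-3p: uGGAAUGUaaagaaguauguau

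Genes with a site leaned slightly higher with overexpression for each of these microRNAs. Those with a let-7a site, 578 in all, had 30.4% higher and 25.1% lower, with a median of 0.03. For miR-17 it was 32.3% and 26.1% of 744 genes, for miR-19b 31.7% and 24.6% of 979, and for miR-16 30.3% and 21.2% of 671. The widest gap was that of miR-21, with 38.2% higher and 19.5% lower of 380 genes. The miR-92a site, shared with miR-25, which has the same seed, gave 34.6% and 21.1% of 512 genes, and miR-30a gave 33.4% and 23.0% of 1246. The liver and muscle microRNAs lay in the same range, with 32.1% and 25.4% of 461 genes for miR-122 and 34.7% and 22.6% of 764 genes for miR-1. A long 3' UTR offers more room for a site of any kind, and the 3417 genes with the longest ones had 33.5% and 22.5% without regard to sites. Among genes whose mean log2 CPM reached 3, 23.2% of all were higher and 32.0% lower. There the let-7a genes had 26.6% higher and 28.2% lower and the miR-122 genes 28.3% and 29.6%, so the lean turned for both. The other microRNAs listed kept more higher than lower calls there, from 35.5% and 21.5% for miR-21 to 29.7% and 29.2% for miR-17. Sites of miR-10a, miR-103a and miR-7 were also counted, and without this read limit their genes leaned higher too. With it, miR-103a turned, at 26.4% and 31.5%. The miR-10a genes (29.8% and 26.8%) and the miR-7 genes (28.1% and 26.1%) did not. For each microRNA the lean stayed above that of all genes. miR-130a-3p and miR-124-3p were not examined.

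The HEK293F label was checked against marker genes. All 9 markers of HEK293 cells were detected, at a summed 1104 to 1133 CPM with overexpression, 1477 to 1542 with knockdown and 1223 to 1266 in control, and 4 of them were lower with overexpression and 1 higher. Of 6 fibroblast markers, the collagen chain gene COL1A2 had no read in the 5 libraries. The 6 summed to 67.3 to 75.2 CPM with overexpression, 51.1 to 53.05 with knockdown and 66.6 to 71.5 in control. Of the 5 tested, 4 were higher with overexpression. The call of one of them, DCN, was lost in DESeq2 (adjusted p = 0.1005), with the replicate number as a block (0.0738) and without knockdown replicate 2 (0.0607) or 3 (0.0807), and also at a threshold of 0.01. Their part in the result for matrix genes was not tested. Markers of blood, endothelium, liver and mature kidney tubule each summed to at most 1.797 CPM in each of the 5 libraries, and none of the tested ones was called.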

How the data were processed

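Gene-level read counts of 8 RNA-seq libraries were used as the authors deposited them, 1 table of whole-number counts per gene symbol without normalization. The submitters' processing notes name HTSeq 0.5.3p9, SAMtools 0.1.18, TopHat2 2.0.8, Trimmomatic 0.22, CASAVA 1.8.2 and edgeR, and the genome build hg19. How the counting treated strand and reads with several matches is not given in the sources used here, so overlapping and antisense genes cannot be told apart. No column was without a sample.

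The 3 overexpression and 2 knockdown libraries were compared with edgeR 4.0.16 (R 4.3.3; limma 3.58.1) after filterByExpr (minimum count 10, total 15), TMM scaling and a quasi-likelihood F test of 1 contrast, with Benjamini-Hochberg adjustment over 15235 genes. The biological coefficient of variation was 5.37% and the residual degrees of freedom were 3. The SE is the absolute log2 fold change divided by the square root of F. Replicates of a group differed by more than sampling noise. Ratios to the control mean used a pseudocount of 0.1 CPM. An exact permutation test of 3 against 2 libraries cannot go below p = 0.1 and was not used. The scripts were tested on simulated data.

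Named genes were MOV10, the 14 with the largest change in each direction among called genes without overlap whose mean log2 CPM reached 3, the 6 per direction with most reads and a log2 change of at least 0.58, the 4 per list with the smallest adjusted p, and the Argonaute, TNRC6, FMR1 and FXR genes. CRYAB, NUPR1, TRIB3, SLC7A11, ATF4, DUSP4, SPRY4, KLF2, CDKN1A, DICER1 and DROSHA were added after their values were seen. Some genes that the rule names are not reported here. The comparison, the 35 gene lists, the 6 marker lists and the leading words were chosen with earlier results of these data known. The word scan covered 45698 words, each in at least 100 of 11621 genes whose mean log2 CPM reached 2, with a 3' UTR of at least 50 nt, with UTR length and composition taken into account. Coordinates are not given, since the 3' UTRs are from another build than the counts.

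Alternatives were all 8 libraries in the fit, other scaling, other filters, DESeq2 1.42.0, limma-voom, a stricter adjusted p (0.01), a test against 1.2-fold, a replicate block, reads thinned to the shallowest library and each library left out.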

Additional observations from a re-analysis of the deposited data

How the results depend on the processing

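A fold threshold of 1.2 lowered the calls to 2358 higher and 1370 lower, since it asks for more than a difference from 0. Leaving out each library in turn gave 2515 to 4506 higher and 2189 to 4420 lower, lowest without knockdown replicate 2, and MOV10 kept a log2 fold change of 5.65 to 5.80. Without that library, 20 of 35 lists had their larger count moved by over 1.5 times, and the cause was not tested. The other alternatives, from DESeq2 (3318 and 3596) to library totals (5336 and 2674), moved either count by less than 1.5 times. Overexpression and knockdown share the replicate numbers 2 and 3, which no label ties to a culture or day. With the replicate number as a block the calls were 3502 and 3156, and 4123 and 3953 with all 8 libraries. Deviations from the group mean correlated at r = -0.01 for the pair numbered 2 and 0.05 for the pair numbered 3. The deviations of the knockdown libraries mirror each other, so these values cannot show whether a pair shared a culture or day. Of 195 genes followed, MOV10 included, which take in those named here, none that was called changed direction. DICER1 and TNRC6C, which were not called, turned higher under library totals, DICER1 also without overexpression replicate 2. In contrast, the balance of calls in the endoplasmic reticulum, let-7 and TGF-beta lists turned under several. A fold threshold of 1.2 ended the call of 15 of them, AQR, DNA2, EIF2C1, HSP90AB1 and PCNA included, and leaving out knockdown replicate 2 that of 8. The shallowest library, at 12.7 M reads, limits genes of few reads, and thinning to it left 3586 higher and 3400 lower.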

Other observations

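Among genes with a mean log2 CPM under 3, some changed by more than most genes named in the report, and those given here were chosen after their values were seen. HSPA7, the near-identical relative of HSPA6, was at 1.05, 0.941 and 0.767 CPM with overexpression and 0.0634 and 0 with knockdown, with control at 0.0447, 0.0521 and 0.0671.

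In the falls given here the control mean lay between the groups. The dynein heavy chain gene DNAH3 was at 2.01, 1.30 and 1.38 CPM with overexpression and 13.2 and 9.50 with knockdown, with control at 3.17, 4.22 and 3.22 (edgeR log2 fold change -2.85 ± 0.19, adjusted p = 1.04e-09). LOC284344 was at 1.09, 0.941 and 0.460 CPM against 13.004 and 8.91, with control at 4.83, 4.22 and 4.63 (-3.64 ± 0.22, edgeR adjusted p = 3.14e-10). The alcohol dehydrogenase ADH1C was at 0.0836, 0.0896 and 0.153 CPM against 2.89 and 2.08, with control at 0.849, 0.834 and 0.470. ADH1C has close relatives in the genome. IRGM, a GTPase of autophagy, was at 0.794, 0.538 and 0.230 CPM against 4.82 and 2.94, with control at 1.43, 1.72 and 0.939. The interferon-induced GTPase GBP5 was higher with knockdown, at 1.11 and 0.587 CPM against 0.0418, 0.134 and 0 with overexpression and 0.268, 0.209 and 0.336 in control.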
